A study of Mus musculus with 6 samples.

Results

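Inflammasomes are cytosolic complexes that turn the detection of microbes or cell damage into inflammatory death. The transcripts of 10 genes of this machinery were followed in mouse eosinophils given extracellular vesicles (EVs) from activated Th2 cells. They were the sensors Nlrp3, Nlrp1b, Aim2, Naip2, Naip5 and Nlrc4, the adaptor Pycard, the proteases Casp1 and Casp4, and the pore-forming protein gene Gsdmd. The genes were chosen by name, with earlier results of these data known. Each of the 10 was found by its exact symbol among the 16254 genes of the deposited count table. Eosinophils were differentiated from bone marrow of C57BL/6 mice aged 6 to 12 weeks, first with FLT3 ligand and stem cell factor and then with IL-5, so that no group was a genetic model. On culture day 12 they received either 5e+09 EVs/ml, purified by size exclusion from cultures of Th2 cells restimulated through the T-cell receptor, or a sham control, which was unconditioned medium taken through the same purification. Whether IL-5 was present during this treatment is not given in the sources used here, so that EV-treated cells are compared with sham-treated cells of unknown cytokine supply. RNA was collected after 24 h from 3 sham-treated and 3 EV-treated samples, which the labels call biological replicates without saying whether each came from its own animal, and was sequenced after poly(A) selection. The p-values therefore measure the spread between these samples. The comparison asks how inflammasome transcripts differed with EV treatment in these eosinophil cultures, whose RNA can also hold that of other cells. No protein, cleavage of caspase or death by pyroptosis was measured in these files. The paper reports that eosinophils given such EVs survived better than untreated cells, with less apoptosis. The share of dying cells in each RNA sample is not given in the sources used here. Its part in the differences was not tested.

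As background, a canonical inflammasome forms when a sensor binds its trigger and recruits pro-caspase-1, usually through the adaptor ASC, the product of Pycard. Active caspase-1 cleaves pro-IL-1β and pro-IL-18 to their secreted forms and cuts gasdermin D, whose freed N-terminal part makes pores in the plasma membrane, and the lytic death that follows is called pyroptosis. In the noncanonical route, mouse caspase-11, the product of Casp4, binds bacterial lipopolysaccharide in the cytosol and cuts gasdermin D itself. Eosinophils are known mainly for their granule proteins and their dependence on IL-5 family cytokines, and inflammasomes have been studied far more in macrophages.

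The NAIP sensors are near copies of each other, which bears on every count given for them. Their coding starts are shown first, since reads from the shared stretches cannot be placed in 1 gene. The lines give the first 60 coding bases of the longest coding transcript of each gene in GENCODE vM21 (GRCm38), 5′ to 3′ on the coding strand, with capitals marking bases that differ from Naip5 at the same position:
Naip2: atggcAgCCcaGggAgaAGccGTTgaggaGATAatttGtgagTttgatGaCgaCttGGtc
Naip5: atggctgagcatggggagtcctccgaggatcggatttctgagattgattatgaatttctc
Naip6: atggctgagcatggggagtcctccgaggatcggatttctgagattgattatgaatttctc
Naip1: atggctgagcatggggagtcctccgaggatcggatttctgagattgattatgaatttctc
Naip5, Naip6 and Naip1 are identical over these 60 bases, and Naip2 differs from them at 21. Of all 31-base words in the longest coding transcript of Naip5, 53.1% also occur in a transcript of another gene, with 36.7% in Naip6. For Naip2 the share is 33.1%, with 21.3% in Naip1. The other members shared less. The share was 12.8% for Pycard, 6.59% for Aim2, 6.48% for Nlrp1b and 3.45% for Nlrc4, and no such word was shared for Nlrp3, Casp1, Casp4 and Gsdmd. The share in Pycard lies mainly in an overlapping gene on the opposite strand, Gm45205, which covers 12.8% of its exon bases, and since the sources used here do not state whether the counting used strand, reads of the pair cannot be told apart there. Counts of the NAIP genes are thus read as uncertain between copies, and the sum of Naip2, Naip5, Naip6 and Naip1 is given beside them.

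The upstream sequences of the members called lower with EV treatment in the test below are shown next, with that of Casp4 for a member that did not pass the test. Each line holds the 250 bases before a RefSeq transcript start, read on the gene's own strand from the GRCm38.p6 assembly, at chr17:74459109-74459358 (minus strand) for Nlrc4, chr11:59541319-59541568 (plus strand, the farther upstream of 2 listed starts) for Nlrp3, chr7:127993868-127994117 (minus strand) for Pycard, chr13:100202123-100202372 (minus strand) for Naip2 and chr9:5308599-5308848 (plus strand, the first of 2 overlapping starts) for Casp4. Capitals mark matches to the motifs searched:
Nlrc4: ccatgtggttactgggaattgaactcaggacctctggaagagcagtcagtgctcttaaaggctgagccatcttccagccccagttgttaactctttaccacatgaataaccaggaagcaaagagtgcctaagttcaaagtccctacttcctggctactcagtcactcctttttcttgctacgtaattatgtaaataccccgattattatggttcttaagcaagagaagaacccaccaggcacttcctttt
Nlrp3: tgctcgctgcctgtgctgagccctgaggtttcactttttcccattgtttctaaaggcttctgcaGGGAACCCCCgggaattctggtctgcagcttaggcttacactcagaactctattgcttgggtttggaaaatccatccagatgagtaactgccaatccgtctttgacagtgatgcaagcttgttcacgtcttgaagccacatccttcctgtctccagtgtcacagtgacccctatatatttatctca
Pycard: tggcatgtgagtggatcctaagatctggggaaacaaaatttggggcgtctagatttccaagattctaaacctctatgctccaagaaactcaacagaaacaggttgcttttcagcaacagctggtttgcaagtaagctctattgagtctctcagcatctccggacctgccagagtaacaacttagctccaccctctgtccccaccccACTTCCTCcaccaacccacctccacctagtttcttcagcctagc
Naip2: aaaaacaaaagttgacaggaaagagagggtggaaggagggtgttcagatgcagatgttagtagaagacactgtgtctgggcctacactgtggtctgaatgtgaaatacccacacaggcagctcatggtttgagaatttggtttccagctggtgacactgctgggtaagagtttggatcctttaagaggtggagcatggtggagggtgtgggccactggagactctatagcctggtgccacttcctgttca
Casp4: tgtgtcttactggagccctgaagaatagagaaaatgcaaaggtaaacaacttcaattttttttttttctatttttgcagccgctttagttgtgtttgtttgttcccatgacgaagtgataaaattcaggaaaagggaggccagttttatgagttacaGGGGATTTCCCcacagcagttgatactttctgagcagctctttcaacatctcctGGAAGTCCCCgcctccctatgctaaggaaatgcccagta
The motifs searched on both strands were an NF-κB site, the STAT palindrome TTCNNNGAA, an interferon response element, the AP-1 site TGANTCA and the PU.1 site GAGGAAGT. Of the 10 members, 9 had an entry in the promoter table, with 12 windows in all, and the missing entry was Gsdmd. For Naip2 and Naip5 the bases right after the window occur in no coding GENCODE vM21 transcript of the gene. These 2 RefSeq starts are thus not matched by the annotation used for the gene coordinates. An NF-κB match was found in 4 of the 12 windows, where 7.25% of all 32851 windows of this length hold one. These were a window each of Nlrp3 and Naip5 and the 2 windows of Casp4, which overlap and share their matches. At Casp4 a pair of overlapping matches lies 92 to 83 and 93 to 84 bases before the start, and a further one 39 to 30 bases before it. A PU.1 match was found in 3 of the 12 windows, against 2.44% of all windows, in Pycard 44 to 37 bases before the start and also in Aim2 and in a window of Nlrp1b. None of the 12 windows held a STAT, interferon response or AP-1 match, motifs found in 7.02%, 2.98% and 6.75% of all windows. These matches describe letters in a short window and were compared with no measurement of binding.

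The estimated counts summed to 23697620 to 32808674 per sham-treated sample and 32260914 to 37874426 per EV-treated sample. Low counts were filtered out, which left 13498 genes, and all 10 members passed this filter. For normalized counts, each rounded count was divided by its sample's size after TMM scaling, where sizes have a geometric mean of 1 over the 6 samples. The test between groups was edgeR's quasi-likelihood F test, with Benjamini-Hochberg adjustment over the 13498 genes and a call at an adjusted p under 0.01. With 3 samples against 3, the smallest two-sided p that exact permutation of 1 gene's values allows is 0.1. Markers of eosinophils were present throughout, with summed normalized counts of 930213 to 1172120 in sham-treated and 1329200 to 1486140 in EV-treated samples, and 8 of the 11 markers were higher with EVs and none lower. Of the 8 T-cell markers, 2 passed the filter on low counts, Cd28 was lower and Cd3d did not pass the test, Thy1 was at 0 in all 3 sham-treated samples and at no more than 2.57 normalized counts with EVs, and Cd3e was not analysed here.

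In EV- versus sham-treated eosinophils, 4 of the 10 genes were lower, the sensor subunit Nlrc4, the sensors Nlrp3 and Naip2, and the adaptor Pycard, and none was higher. The fitted ratio of EV-treated to sham-treated levels was 0.434 for Nlrc4, 0.673 for Nlrp3, 0.741 for Naip2 and 0.781 for Pycard. Beside these 4 of 10, 11.6% of all genes tested were called lower and 12.1% higher with EV treatment. In bulk RNA, fewer cells of a type and less RNA per cell cannot be told apart. No member was higher at an unadjusted p under 0.05 either, nor at an adjusted p under 0.01 with DESeq2. The median log2 fold change was -0.33 over the 10 members, of which 8 were negative and 2 positive, and -0.01 over all genes tested. In 7 members every EV-treated sample lay below every sham-treated sample, a separation that 24.7% of all genes tested showed in that direction. Separation in the other direction, seen in 24.8% of all genes, was found for none. With the study's further demand of a log2 fold change of at least 1 in size, only Nlrc4 was called among the members, beside 6.35% of all genes called lower. Leaving out each sample in turn gave 1 (without EV replicate 2) to 5 (without sham replicate 1) members lower, with 3 without sham replicate 2 or 3 and 2 without EV replicate 1 or 3. Of all genes, 1055 (without EV replicate 3) to 1716 (without sham replicate 1) were called lower in these fits. Scaling by library totals in place of TMM moved the median of all genes by -0.15 and called 1036 genes higher and 2342 lower in place of 1632 and 1572, and there Casp1, Naip5 and Aim2 were called lower as well, 7 members in all.

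**Figure D1:**
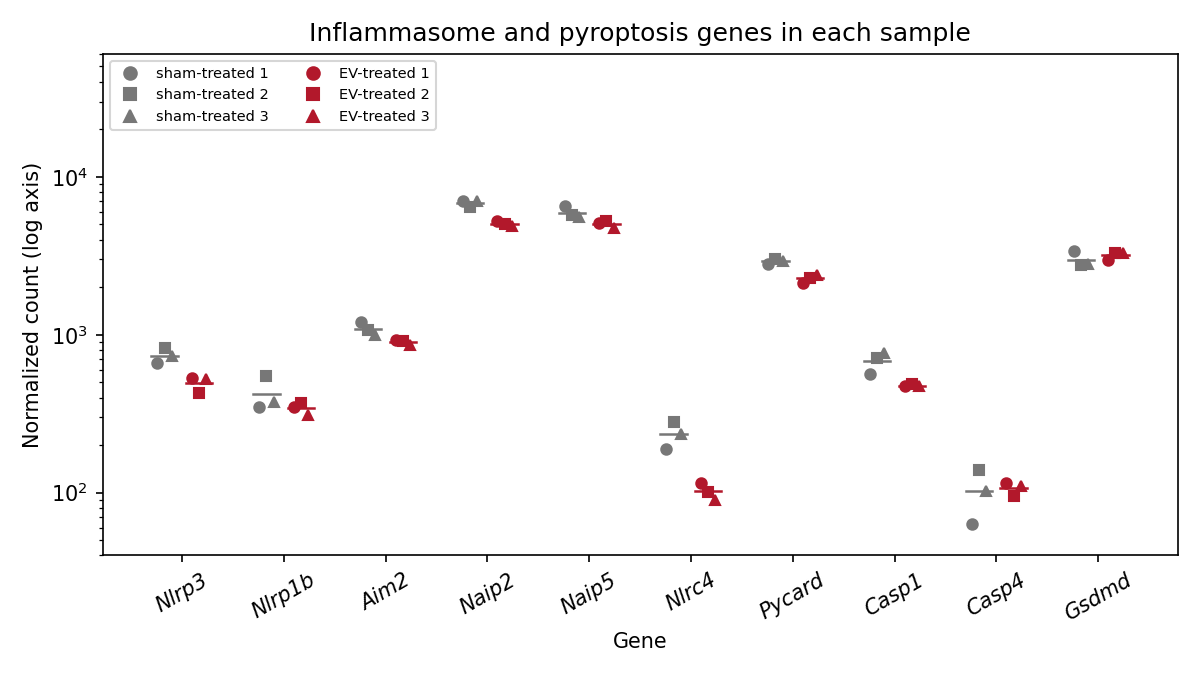
Normalized count (log axis) of the 10 inflammasome and pyroptosis genes in each of the 3 sham-treated (grey) and 3 EV-treated (red) samples, with the symbol giving the replicate number and a short line the group mean. Nlrc4 shows the widest gap between groups, from 189 at the lowest sham-treated sample to 115 at the highest EV-treated one, while the groups overlap for Nlrp1b, Casp4 and Gsdmd.

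In the receptor module for bacterial flagellin and secretion system proteins, Nlrc4 and Naip2 were lower. Nlrc4 (ENSMUSG00000039193.9, chr17:74425438-74459142, minus strand) encodes the subunit that a ligand-bound NAIP activates and that then polymerizes. It had 189, 282 and 235 normalized counts in the sham-treated and 115, 101 and 89.7 in the EV-treated samples, so that no EV-treated sample reached a sham-treated one. The log2 fold change was -1.20 ± 0.221 (SE, adjusted p = 0.00188), the largest change in size among the members, at low counts of 103 to 230 reads. The call was lost without EV replicate 2 (adjusted p = 0.0115) or EV replicate 3 (adjusted p = 0.0144) and kept without any other sample.

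Naip2 (ENSMUSG00000078945.10, chr13:100144063-100202092, minus strand), the receptor for the inner rod protein of type III secretion systems, was among the most abundant members. Its normalized counts were 7004, 6408 and 7057 in sham-treated and 5246, 5022 and 4909 in EV-treated samples. The groups were well apart for their spread, and the log2 fold change of -0.43 ± 0.0621 (SE, adjusted p = 0.000408) passed the threshold in every alternative fit and without each sample in turn.

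Naip5 (ENSMUSG00000071203.6, chr13:100211739-100246323, minus strand), a receptor for flagellin, had 6497, 5693 and 5580 normalized counts in sham-treated and 5111, 5218 and 4761 in EV-treated samples. Every EV-treated value was below every sham-treated value, by a small margin, and the log2 fold change of -0.24 ± 0.0735 (SE) did not pass the threshold (adjusted p = 0.0302). Naip6, its closest copy and also a flagellin receptor, passed it with a log2 fold change of -0.32 ± 0.0653 (SE, adjusted p = 0.00337), which was lost without sham replicate 2, EV replicate 2 or EV replicate 3 (adjusted p of 0.0124, 0.0144 and 0.0214). Naip1, the receptor for the needle protein, was at 188 to 241 normalized counts in sham-treated and 70.3 to 113 in EV-treated samples, a log2 fold change of -1.19 ± 0.236 (SE, adjusted p = 0.00302). That call was lost without sham replicate 3, EV replicate 2 or EV replicate 3 (adjusted p of 0.0140, 0.0161 and 0.0157). Summed over Naip2, Naip5, Naip6 and Naip1, which does not depend on how reads were divided among these 4 genes, the normalized counts were 19280, 18250 and 18330 in sham-treated and 15190, 14920 and 14000 in EV-treated samples. The sums did not overlap, and the ratio of the group means was 0.79, with no test made on the sum. Naip3, not in the sum, holds 33.5% of the 31-base words of Naip1, 21.1% of Naip5's and 20.2% of Naip2's. The sum can thus still depend on reads shared with Naip3.

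Of Nlrp3, Aim2 and Nlrp1b, the 3 members that sense without NAIPs, only Nlrp3 passed the test. Nlrp3 (ENSMUSG00000032691.14, chr11:59541568-59566956, plus strand) responds to potassium loss and many forms of cell damage. Its normalized counts were 660, 820 and 729 in sham-treated and 529, 430 and 527 in EV-treated samples. The groups did not overlap, and the log2 fold change was -0.57 ± 0.129 (SE, adjusted p = 0.00621). This was the least secure of the 4 calls. It was kept without sham replicate 1 (adjusted p = 0.00368) and lost without any other sample, with adjusted p of 0.0186 and 0.0166 without sham replicates 2 and 3, and of 0.0138, 0.0341 and 0.0196 without EV replicates 1, 2 and 3, at log2 fold changes of -0.62 to -0.48.

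Aim2 (ENSMUSG00000037860.15, chr1:173350879-173466040, plus strand), the sensor of double-stranded DNA in the cytosol, had 1199, 1070 and 991 normalized counts in sham-treated and 928, 912 and 862 in EV-treated samples. The EV-treated values were again all lower, by a log2 fold change of -0.27 ± 0.0941 (SE, adjusted p = 0.0461), above the threshold of 0.01. Nlrp1b (ENSMUSG00000070390.12, chr11:71153102-71230733, minus strand), which senses inhibition of DPP8 and DPP9 and, in some mouse strains, anthrax lethal factor, had 346, 550 and 375 normalized counts in sham-treated and 350, 367 and 310 in EV-treated samples. Here the groups overlapped, and 1 high value, sham replicate 2, set most of the difference. The log2 fold change was -0.31 with a 95% interval of -0.72 to 0.11 (adjusted p = 0.238), and -0.08 without that sample.

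The adaptor and the proteases differed in how far they could be told apart between groups. Pycard (ENSMUSG00000030793.4, chr7:127989708-127993867, minus strand) encodes ASC, whose filaments gather caspase-1 for most sensors. It had 2800, 2999 and 2947 normalized counts in sham-treated and 2139, 2298 and 2394 in EV-treated samples. The 2 ranges were apart with little spread within either, for a log2 fold change of -0.36 ± 0.0679 (SE, adjusted p = 0.00244). The call was lost without EV replicate 1 (adjusted p = 0.0163) or EV replicate 2 (adjusted p = 0.0131).

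Casp1 (ENSMUSG00000025888.5, chr9:5298517-5307265, plus strand), the protease at the centre of the canonical route, had 560, 712 and 768 normalized counts in sham-treated and 471, 486 and 473 in EV-treated samples. The EV-treated samples were close together and all below the more spread sham-treated ones. Its log2 fold change of -0.51 ± 0.133 (SE) lay just outside the threshold (adjusted p = 0.0131). It was inside it with DESeq2 (adjusted p = 0.00427) and without sham replicate 1 (adjusted p = 0.00143), and between 0.0335 and 0.0531 without each of the other samples. Casp4 (ENSMUSG00000033538.13, chr9:5308828-5336783, plus strand), the neighbour of Casp1 on chromosome 9, had 63.1, 140 and 102 normalized counts in sham-treated and 115, 95.1 and 110 in EV-treated samples. The sham-treated values spread across the whole EV-treated range. The log2 fold change of 0.07 had a 95% interval of -0.63 to 0.78 (adjusted p = 0.883), so that a fall like the -0.57 of Nlrp3 was not detectable at this spread, and its sign turned without sham replicate 1 (-0.18).

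Gsdmd (ENSMUSG00000022575.5, chr15:75862327-75867408, plus strand), the pore-forming substrate, had 3369, 2771 and 2790 normalized counts in sham-treated and 2967, 3274 and 3284 in EV-treated samples. The groups overlapped, with sham replicate 1 the highest of all 6 samples. Its log2 fold change of 0.09 (adjusted p = 0.458) had a 95% interval of -0.10 to 0.29, so that a fall as large as the -0.36 of Pycard lay outside the interval. The sign of this small value turned when samples were scaled by library totals alone (-0.06).

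**Figure D2:**
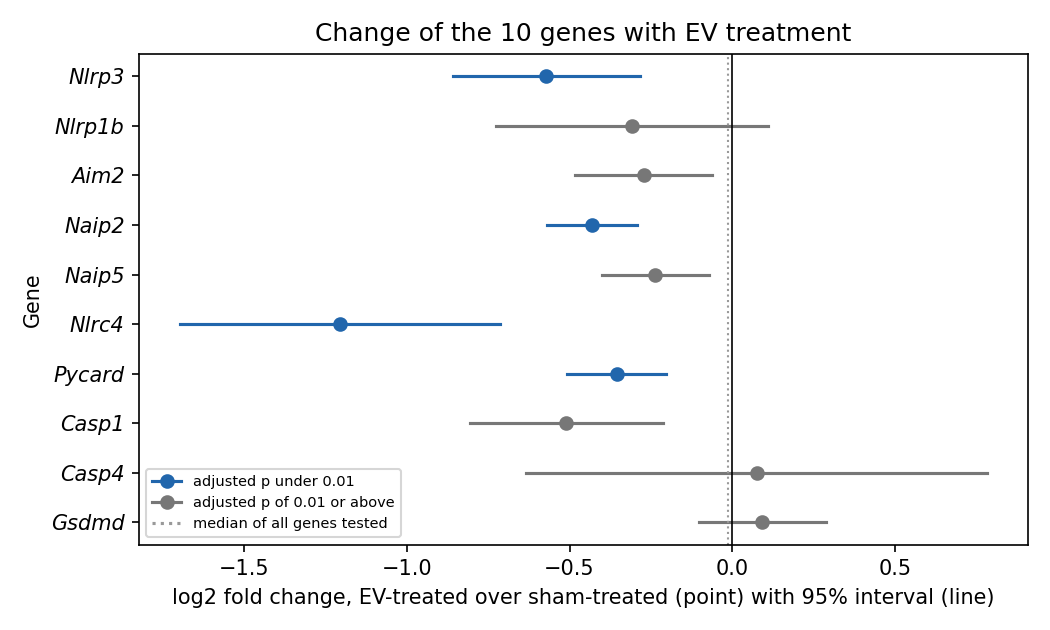
The log2 fold change of EV-treated over sham-treated samples for each of the 10 genes (point) with its 95% interval (line), in blue for the 4 genes at an adjusted p under 0.01 and grey for the other 6, and a dotted line at the median of all genes tested (-0.01). Nlrc4 lies at -1.20, apart from the others, and the intervals of Nlrp1b, Casp4 and Gsdmd cross 0.

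Levels were compared between genes only as normalized counts per kilobase of the longest coding transcript. In sham-treated eosinophils the order of these levels was Gsdmd at 1660 ± 190 (SD, n = 3), Naip2 at 1410 ± 74.7, Naip5 at 1140 ± 96.2, Pycard at 767 ± 27.2, Casp1 at 454 ± 71.7, Aim2 at 383 ± 37.0, Nlrp3 at 183 ± 19.9, Nlrp1b at 103 ± 26.7, Casp4 at 70.8 ± 26.7 and Nlrc4 at 49.7 ± 9.80. Naip2 and Naip5 were thus far above Nlrc4, the subunit they act through, and the pore-forming gene was far above both caspases. Casp1 and Aim2 did not differ beyond their spread in this order, nor did Nlrp1b and Casp4, nor Casp4 and Nlrc4. In EV-treated samples the order was the same, with Gsdmd at 1770 ± 101 (SD, n = 3), Naip2 at 1050 ± 35.6 and Nlrc4 at 21.5 ± 2.67, and Casp4 at 74.3 ± 7.13 no longer overlapped Nlrc4. The order depends on the length used, at its top and below it. In sham-treated samples Casp4 came to 27.4 over all merged exons, below Nlrc4 at 48.9. Nlrp3 came to 1090 over the shortest coding transcript, above Casp1 at 454. The top moved as well. Over all merged exons Gsdmd came to 1250 and Naip2 to 1410, and over the shortest coding transcript Gsdmd came to 7170, Pycard to 5910 and Aim2 to 3330, all above Naip2 at 1570.

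The other genes of the pathway moved in both directions. Of 88 such genes in 7 lists by role, 78 were in the table and 77 passed the filter on low counts, and 18 were higher and 13 lower, beside the 12.1% and 11.6% of all genes. Their median log2 fold change was 0.07.

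Of the 13 other sensors tested, 4 were higher and 4 lower. Zbp1, the sensor of Z-form nucleic acids that leads to necroptosis and pyroptosis, was at 13.4 to 75.7 normalized counts in sham-treated and 1017 to 1094 in EV-treated samples, a log2 fold change of 4.49 ± 0.368 (SE, adjusted p = 9.31e-06). Nlrc5, the transactivator of MHC class I transcription, rose by a log2 fold change of 1.63 ± 0.106 (SE, adjusted p = 2.19e-06). Nlrp1a, the paralog beside Nlrp1b, fell by 1.15 on the log2 scale (adjusted p = 0.00201), and the 31-base words it shares with Nlrp1b come to 6.84% of its transcript. That call was lost without EV replicate 2 (adjusted p = 0.0139) or EV replicate 3 (adjusted p = 0.0104).

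Of the 18 regulators of assembly, 5 were higher and 4 lower. Irf8, a transcription factor known to maintain NAIP and Nlrc4 transcription in mouse myeloid cells, had 672, 1266 and 911 normalized counts in sham-treated and 53.0, 135 and 130 in EV-treated samples, a log2 fold change of -3.15 ± 0.333 (SE, adjusted p = 5.01e-05). Trpm2, a calcium channel opened by oxidative stress, fell by 1.43 on the log2 scale (adjusted p = 3.47e-06). Of the 3 guanylate-binding protein genes tested, whose products open pathogen vacuoles and coat bacteria for caspase-11, Gbp2 and Gbp3 were higher, and Gbp5, at -0.06 on the log2 scale, did not pass (adjusted p = 0.867). Gbp2 rose by a log2 fold change of 2.59 ± 0.222 (SE, adjusted p = 1.22e-05), and Gbp3 was at 0 counts in all 3 sham-treated samples and at 14.0, 30.9 and 33.9 normalized counts with EVs, at least 7.86-fold higher against a floor of 3 counts per library. The Gbp3 call (adjusted p = 0.00269) was lost without EV replicate 2 or EV replicate 3 (adjusted p of 0.0127 and 0.0157).

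The inhibitors, executors and substrates held single strong changes. Of the 6 inhibitors tested 1 was higher and 1 lower. Il1rn, the antagonist of the IL-1 receptor, rose from 4311 to 4520 normalized counts in sham-treated to 12175 to 12555 in EV-treated samples, a log2 fold change of 1.49 ± 0.0534 (SE, adjusted p = 4.85e-08). Serpinb9, an inhibitor of granzyme B also known to bind caspase-1, fell by 2.29 on the log2 scale (adjusted p = 0.000269).

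Of the 9 executors of lytic death tested, 2 were higher and 1 lower. Gsdme, another gasdermin gene, had 664, 665 and 582 normalized counts in sham-treated and 1462, 1526 and 1659 in EV-treated samples, a log2 fold change of 1.28 ± 0.0920 (SE, adjusted p = 4.00e-06). Ninj1, which ruptures the membrane after gasdermin pores have formed, had 3663, 3603 and 3815 normalized counts in sham-treated and 2149, 2400 and 2351 in EV-treated samples, a log2 fold change of -0.68 ± 0.0669 (SE, adjusted p = 3.06e-05). None of the 13 membrane repair genes tested passed with edgeR or with DESeq2, and 1 of them was higher at an unadjusted p under 0.05.

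Of the 4 released substrates tested, Hmgb1, a nuclear protein set free by lysis, rose by a log2 fold change of 0.61 ± 0.0601 (SE, adjusted p = 3.14e-05), and Il1a fell by 1.01 on the log2 scale (adjusted p = 0.00409), a call lost without sham replicate 3, EV replicate 1 or EV replicate 2 (adjusted p of 0.0173, 0.0206 and 0.0232). Il1b, the main substrate of caspase-1, was at 104 to 158 normalized counts in sham-treated and 101 to 160 in EV-treated samples. Its log2 fold change of 0.09 had a 95% interval of -0.49 to 0.68 (adjusted p = 0.815), and its sign turned without sham replicate 2 or EV replicate 1 and when scaled by library totals. Il18 was at 15.3, 20.8 and 24.3 normalized counts in sham-treated and 0, 2.57 and 6.09 in EV-treated samples, which did not overlap but did not pass the test at these low counts (adjusted p = 0.0512).

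Of the 14 priming genes, whose products induce Nlrp3 and Il1b transcription or carry interferon signals, 5 were higher and 2 lower. Tlr4, the lipopolysaccharide receptor, rose by a log2 fold change of 2.28 ± 0.169 (SE, adjusted p = 4.85e-06), and Irf9 by 1.31 ± 0.0729 (adjusted p = 7.96e-07). Tlr2 fell by 1.33 on the log2 scale (adjusted p = 0.00482), a call kept only without sham replicate 1 or EV replicate 1 among the 6 samples left out in turn (adjusted p of up to 0.0272 without the others).

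**Figure D3:**
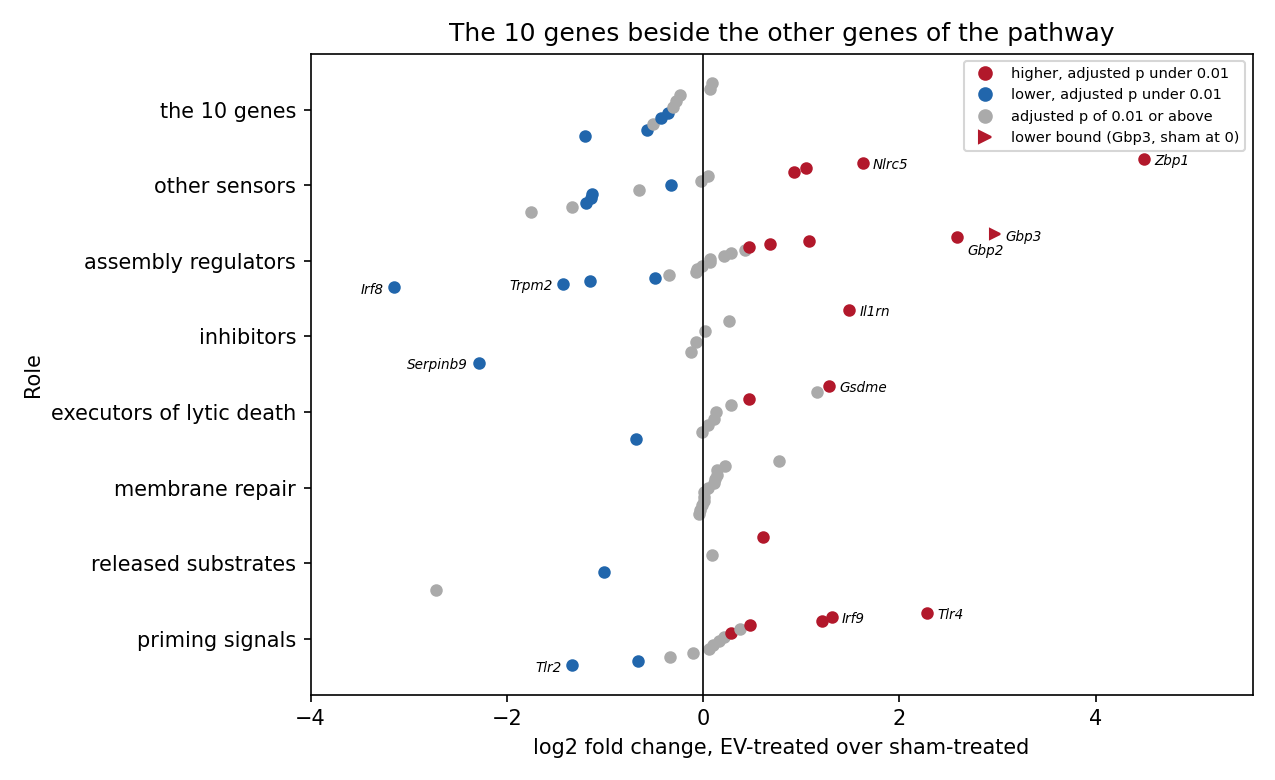
The log2 fold change of EV-treated over sham-treated samples for the 10 genes and for the 77 other genes of the pathway tested, by role, with red points higher, blue points lower and grey points not past an adjusted p of 0.01. The arrowhead is the lower bound for Gbp3. Points lie on both sides of 0 in every role. The 4 called points of the 10 genes lie below 0, and membrane repair has no called point.

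Most macrophage markers were lower with EVs. Of the macrophage markers, 10 of 11 were in the table and tested, 8 were lower with EVs, Adgre1 was higher and Mrc1 did not pass, while Cd163 was not analysed here. Their median log2 fold change was -2.52. Their summed normalized counts were 45271 to 61815 in sham-treated and 40734 to 45531 in EV-treated samples. Of these sums Adgre1, which eosinophils also express, made up 21095 to 21678 in sham-treated and 32085 to 33532 in EV-treated samples. Over the 8 that fell, a set chosen after their values were seen, the sums were 23210, 39230 and 36020 in sham-treated and 7389, 10040 and 10150 in EV-treated samples. Sham replicate 1 was thus nearest to the EV-treated samples, and all 8 markers were lowest there among the sham-treated samples. Of the 10 inflammasome members, 6 were lowest there too, namely Nlrp3, Nlrp1b, Nlrc4, Pycard, Casp1 and Casp4, beside 35.6% of all genes tested. Naip2, Aim2, Naip5 and Gsdmd were not, and 3 of these, Aim2, Naip5 and Gsdmd, were highest there among the sham-treated samples. Without sham replicate 1 the log2 fold change was -1.34 for Nlrc4, -0.64 for Nlrp3, -0.63 for Casp1 and -0.38 for Pycard, larger in size than with it, as leaving out their lowest sham-treated value must make it. For Naip2, Aim2 and Naip5 it was -0.41, -0.19 and -0.16, smaller in size than with it. Their values in sham replicate 1 lay above their sham means, so that leaving it out must make the change smaller. Of the 9 neutrophil markers tested, 5 were lower and 2 higher, with sums of 16602 to 19034 in sham-treated and 17526 to 20944 in EV-treated samples. The largest part of these sums was Ngp, which did not pass the test, at 6792 to 8927 in sham-treated and 6722 to 9607 in EV-treated samples. Of the 7 basophil and mast cell markers 6 were tested, with 4 higher and none lower. The sums of all 7 were 2266 to 3332 in sham-treated and 6491 to 8196 in EV-treated samples. The part of these cells in the difference of the members was not tested.

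**Figure D4:**
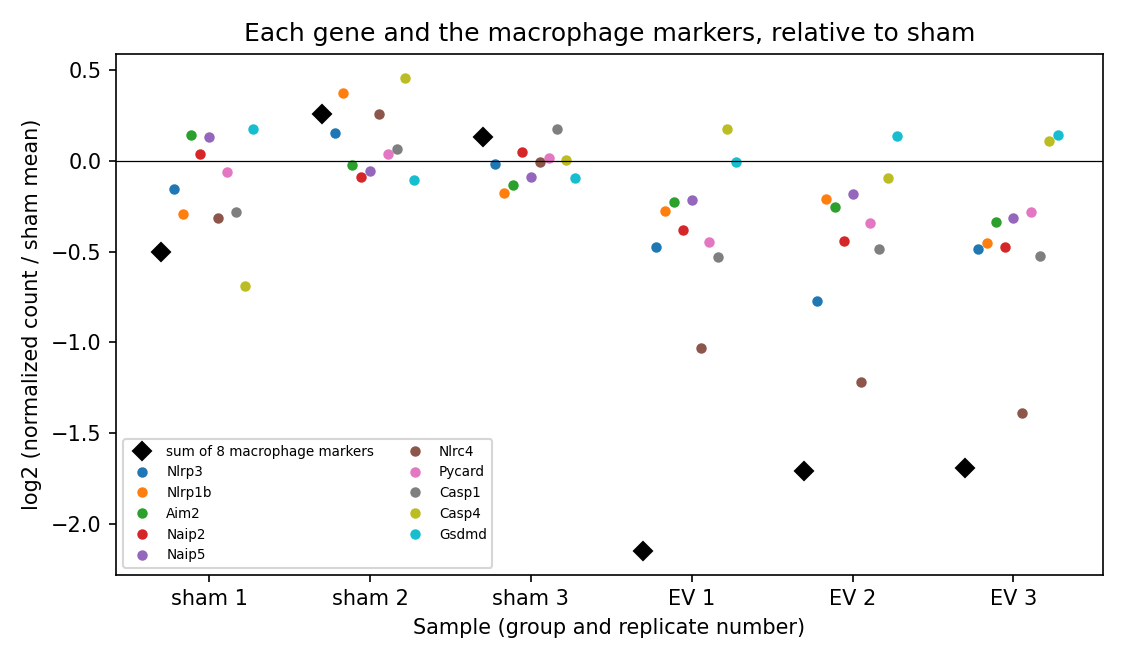
For each sample, the log2 ratio of its normalized count to the sham mean, for the 10 genes (coloured points) and for the sum of the 8 macrophage markers that fell (black diamonds). The diamonds are lowest among sham-treated samples in replicate 1, where 6 of the 10 genes are also lowest and 3 are highest. In all 3 EV-treated samples the diamonds lie below every one of the 10 genes.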

How the data were processed

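RNA from 3 sham-treated and 3 EV-treated cultures of bone marrow-derived eosinophils was analysed, grouped by the sample labels. The authors checked reads with FastQC, trimmed them with Cutadapt and quantified them with Salmon, and deposited estimated counts per gene. Versions and strandedness are not given in the sources used here. The submitters' processing notes name the build mm10, the same assembly as the GRCm38 annotation used here for coordinates. A deposited signal of normalized counts equals the rounded count plus 1 over a size factor (6 values differ). All recovered reads lay within 0.1 of a whole number, and edgeR called 3304 genes on them, an alternative added after the data were seen. The authors' own comparison table, of fold changes, p-values and mean counts, was not used.

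Estimated counts were rounded and fitted across 13498 genes with edgeR 4.0.16 in R 4.3.3 (TMM, filterByExpr, quasi-likelihood test, adjusted p under 0.01), checked first on simulated data. Standard errors are the log2 fold change over the square root of F. Alternatives used DESeq2 1.42.0, limma 3.58.1, other scalings and thresholds, no filter, a replicate block and leaving out each sample. Named are the 10 members, in each of the 7 pathway lists up to 4 called genes of largest change, and Il1b, Il18, Il1a, Naip6, Gsdme and Ninj1. Some genes that this rule names are not reported here. Gbp5, chosen after its values were seen, completes its family. Thy1, Cd3e, Cd28, Cd3d, Adgre1, Mrc1, Cd163 and Ngp are markers named after their values were seen. The members and lists were chosen with earlier results of these data known. Deviations from group means correlated at 0.117, 0.0846 and 0.0371 between same-numbered samples, and at -0.116 to 0.0487 between differently numbered ones. The same-numbered values were not all over 0.1, so the numbers were not taken as pairs in the main fit.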

Additional observations from a re-analysis of the deposited data

How the results depend on the processing

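Groups of 3 and 1 time point limit what can be resolved, and of the members Casp4 and Nlrc4 had the fewest reads. Of 140 values of the 10 members under alternatives, 122 kept their direction and their side of the threshold, 9 lost and 6 gained the call and 3 turned sign. For the 22 other named genes, 288 of 308 kept both, 17 lost the call and 3 turned sign. Scaling by library totals moved the median of all genes tested by -0.15 on the log2 scale, with 7 members lower, their median -0.48, and 1036 of all genes higher. The values that turned sign were -0.077 for Casp4, -0.056 for Gsdmd and -0.054 for Il1b under library totals, -0.18 for Casp4 without sham replicate 1, and for Il1b -0.035 without sham replicate 2 and -0.033 without EV replicate 1. None of these passed the test. Across the 6 fits that each omit a sample, the value ran from -0.18 to 0.37 for Casp4 and from -0.035 to 0.27 for Il1b.

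At an adjusted p under 0.05, 7 members and 2478 of all genes were lower. With a log2 fold change of at least 1 in size, 1 member was lower, 419 of all genes were higher and 857 lower, and 11 pathway genes were higher. Leaving out 1 sample gave 1 (without EV replicate 2) to 5 (without sham replicate 1) members lower, none higher, 1070 to 1834 of all genes higher, 1055 to 1716 lower, 15 to 20 pathway genes higher and 6 to 15 lower. The cause of these moves beyond fewer samples or stricter thresholds was not tested. With the replicate number as a block, 5 members were lower, with Casp1 gained (adjusted p = 0.00707), and 20 pathway genes were higher and 14 lower. Calls rose over all genes too in that fit, to 1794 higher and 1781 lower in place of 1632 and 1572. Each sham replicate correlated best with the EV replicate of its own number, while EV replicate 3 correlated best with sham replicate 2.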
